A study of Arabidopsis thaliana with 24 samples.

Results

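In 227 Arabidopsis genes the fitted 24 h rhythm was stronger in *rve8-1* than in Col. A cosine with a period of 24 h and an intercept was fitted by least squares to the 12 log2 values of each genotype. The amplitude of such a fit is the distance from the fitted mean to the fitted peak on the log2 scale, and R-squared is the share of the variance over the 12 arrays that the cosine takes up. A nuclear gene was a member when its amplitude in *rve8-1* was at least 0.4, its R-squared in *rve8-1* was at least 0.6 and its amplitude in Col was at most 0.5 times that in *rve8-1*. Of 30237 rows on the array, 30137 were nuclear and 227 met the rule, each from a different locus, which is 0.753% of the nuclear rows. The members were thus chosen on measured values. Their amplitudes, R-squared values and differences at single harvest times are given as descriptions, and no test was made of them.

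RNA from whole seedlings was hybridized to 24 AGRONOMICS1 tiling arrays, with 12 per genotype. The wild type was the Columbia accession (Col), and the mutant was a single line, *rve8-1*, with a T-DNA insertion in *RVE8*. Both genotypes were raised as pools of seedlings on sucrose-containing medium, entrained in cycles of equal light and dark, and released into constant light, with 1 pool per genotype at each harvest from 72 to 116 h in steps of 4 h. The 72 h harvest falls at subjective dawn, circadian time 0 (CT0), and each of the 6 circadian times was sampled once on day 4 and once on day 5 of the free run. An array is named below by its genotype and hour, as in *rve8-1*_80. The authors deposited log2 levels after Robust Multichip Averaging (RMA).

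The plant clock is a network of transcription factors that repress and activate one another in sequence over the day. *RVE8* encodes a MYB-like factor of the CCA1 and LHY family that binds evening elements in promoters and promotes the expression of evening-phased clock genes such as *TOC1* and *PRR5*. Plants without RVE8 have a long free-running period, so that after several days in constant light their rhythms lag behind those of wild type. A transcript is called rhythmic when its level rises and falls with the clock in the absence of light and temperature cycles, and its amplitude can differ between genotypes independently of that lag.

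*RVE8* itself had a fitted amplitude of 1.57 in Col and 0.72 in *rve8-1*, and its mean level was lower in *rve8-1* by limma (log2 difference -2.14 ± 0.089, SE). It was lower in *rve8-1* at each of the 12 harvests. Green leaf markers such as *LHCB2.1* (10.37 to 11.87 in Col and 10.48 to 11.75 in *rve8-1*) were high in both genotypes. So was the root marker *PYK10* (11.51 to 11.97 and 11.43 to 11.84), while the mean of the 4 root markers examined lay between 7.19 and 7.64. The flower markers *AP1*, *AG* and *LFY* did not pass the expression filter described below, and 1 of 3 seed markers did. The 25th percentile of the arrays ranged from 3.76 to 4.17 on the log2 scale and their medians from 4.90 to 5.0. In whole seedlings, fewer cells of a type and less RNA per cell cannot be told apart.

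The amplitudes of the members in *rve8-1* ranged from 0.40 to 1.35 with a median of 0.49, and those in Col ranged from 0.0037 to 0.58 with a median of 0.19. Amplitudes were 0.6 or more in *rve8-1* for 54 members and under 0.5 for 119, so most of the set lay close to the lower limit. In 43 members the Col amplitude was at most 0.25 times that in *rve8-1*. R-squared in Col was under 0.3 for 135 members and 0.6 or more for 6, so few of them had a close 24 h fit in Col. The difference between the highest and the lowest array of a gene had a median of 1.41 log2 units in *rve8-1* and 0.96 in Col, and it was larger in *rve8-1* for 215 of the 227.

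The same rule with the genotypes exchanged found 200 genes with a stronger rhythm in Col, 0.664% of the nuclear rows. Over all nuclear rows the amplitude was larger in *rve8-1* than in Col for 51.9%, with medians of 0.17 in both genotypes. Over all nuclear rows, the 227 members therefore stand beside a mirrored set of similar size, and a larger amplitude in *rve8-1* was about as frequent as a larger one in Col. Of the members, 199 passed the expression filter (at least 4 time points above 4.5 in either genotype), 196 of them in both genotypes, 2 in *rve8-1* alone and 1 in Col alone. In the mirrored set 124 genes passed it, so the sets differed more in size among expressed genes. Of all nuclear rows that passed it, 57.0% had the larger amplitude in *rve8-1*, with medians of 0.18 in *rve8-1* and 0.16 in Col. The median level of the members over the 24 arrays was 5.79, against 4.46 for the mirrored set.

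**Figure D1:**
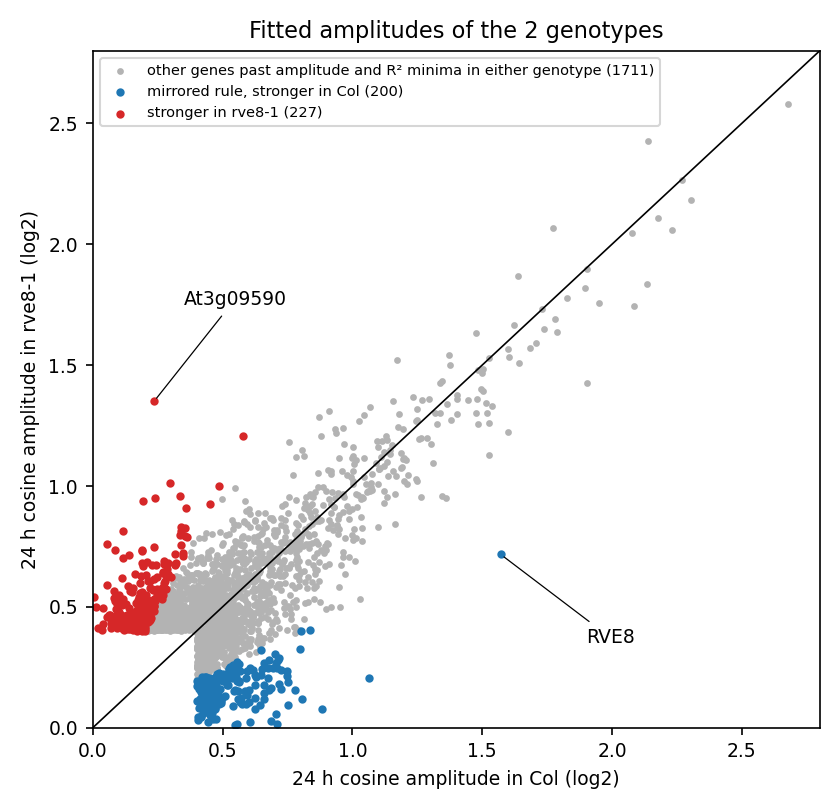
Fitted 24 h amplitude of each gene in Col (x axis, log2) and in *rve8-1* (y axis, log2), with 1 point per gene. Red points are the 227 genes stronger in *rve8-1*, blue points the 200 genes stronger in Col, grey points other genes that passed the amplitude and R-squared minima in either genotype, and the line marks equal amplitudes. At3g09590 lies farthest up among the red points, at 1.35 in *rve8-1* and 0.24 in Col, and *RVE8* lies among the blue ones.

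Near the limits of the rule, members and non-members had almost the same values. *NUDT12*, a Nudix hydrolase, and At1g62520 were just inside the amplitude limit with 0.402 and 0.401 in *rve8-1*, and At1g08670 and *TOC159*, which encodes a receptor of the chloroplast import machinery, were just outside it with 0.399 each. *MIR414* and At1g02350 were just inside the R-squared limit with 0.601 and 0.60, and At1g50290 and At5g41840 were just outside with 0.599 and 0.597. *MRH6*, known from root hair morphogenesis, and At3g19330 had amplitude ratios of Col to *rve8-1* of 0.498 and 0.497, and At2g43120 and *ZCF37* of 0.501 and 0.502.

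At3g09590 had the largest amplitude of all members. Among the loci on the array, it is the one annotated next to *RVE8*, which carries the T-DNA in the mutant. Its level over the 12 Col arrays was lowest at 3.24, had a median of 3.46 and was highest at 4.00, and over the 12 *rve8-1* arrays the corresponding values were 3.52, 4.5 and 6.52. The *rve8-1* levels were highest at 96 h (6.52) and 76 h (6.33) and lowest at 108 h (3.52). The *rve8-1* arrays lay above every Col array at 8 of 12 harvests and within the Col range at the other 4, which were CT12 and CT16 on both days. Its amplitude was 1.35 ± 0.13 (SE, n = 12 arrays) in *rve8-1* and 0.24 ± 0.08 in Col, with the peak 2.1 h after subjective dawn in *rve8-1*. For comparison, the remaining *RVE8* transcript in *rve8-1* had its fitted peak at 2.99 h. None of the 12 Col arrays exceeded the expression limit of 4.5, so At3g09590 passed the filter through *rve8-1* alone, and its Col amplitude comes from levels near the lower end of the scale. At3g09580, the locus beyond it, was no member, with amplitudes of 0.20 in *rve8-1* and 0.11 in Col, but its mean level was 0.93 ± 0.06 log2 units higher in *rve8-1* (adjusted p = 1.83e-07, limma), and all 12 *rve8-1* arrays lay above every Col array. Of the other members, At3g09680 was the nearest to *RVE8*, 7 array loci away on the other side.

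The 11 members that followed it by amplitude were At5g48540, At1g19960, At1g47400, *TH7*, At5g44575, At3g27027, At3g52535, At1g24147, At2g30766, At5g01300 and At2g41090, with amplitudes from 0.81 to 1.21 in *rve8-1* and from 0.12 to 0.58 in Col. Most of them have no gene symbol in the RefSeq table. *TH7* (At1g59730) encodes an h-type thioredoxin, a small protein that reduces disulphide bonds, and At3g52535 is annotated as a long non-coding RNA. The fitted peaks in *rve8-1* lay between 2.24 and 5.15 h after subjective dawn for all of these but At3g27027, which peaked at 8.21 h.

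The level of *TH7* was 4.82, 5.47 and 6.46 in Col (lowest, median and highest array) and 3.99, 5.32 and 6.60 in *rve8-1*. Its highest *rve8-1* array was *rve8-1*_80 and its lowest was *rve8-1*_112, and 4 of the *rve8-1* arrays fell below every Col array. The amplitude was 0.96 ± 0.166 in *rve8-1* and 0.34 ± 0.197 in Col. At5g48540 was the member with the largest Col amplitude. Its level was 5.41, 6.17 and 7.02 in Col and 4.48, 6.12 and 7.10 in *rve8-1*, and the fits gave R-squared values of 0.73 and 0.89. This gene was rhythmic in both genotypes, with amplitudes of 0.58 ± 0.117 in Col and 1.21 ± 0.143 in *rve8-1*.

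At1g19960 and At2g41090 were among the more strongly expressed members. The level of At1g19960 was 10.20, 10.68 and 11.35 in Col and 8.76, 10.29 and 11.30 in *rve8-1*. That of At2g41090 was 10.36, 10.89 and 11.46 in Col and 9.02, 10.72 and 11.20 in *rve8-1*. In both genes no *rve8-1* array exceeded the highest Col array, and 5 and 4 *rve8-1* arrays lay below the lowest Col array, so that the larger amplitude came with deeper troughs in *rve8-1* and not with higher peaks. At2g41090 had an amplitude of 0.81 ± 0.163 in *rve8-1* and 0.12 ± 0.133 in Col.

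The members with the smallest ratio of Col to *rve8-1* amplitude were At1g62370, *bZIP6*, At3g17640, *MIR775*, At3g17225 and At3g10910. The ratios ran from 0.0068 to 0.0858, and all 6 Col amplitudes were smaller than their standard errors. *MIR775*, a microRNA locus, had a level of 5.73, 6.19 and 6.67 in Col and 5.04, 5.96 and 6.97 in *rve8-1*. Of the *rve8-1* arrays, 2 were above all Col arrays and 5 were below all of them, and the highest and lowest were *rve8-1*_80 and *rve8-1*_112. Its amplitude was 0.76 ± 0.119 in *rve8-1* and 0.05 ± 0.129 in Col. The array measures RNA from the locus after labelling from the 3′ end, so the values refer to RNA of the locus and not to the mature microRNA.

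*bZIP6* encodes a basic leucine zipper transcription factor. Its level was 4.42, 4.70 and 5.20 in Col and 4.06, 4.60 and 5.44 in *rve8-1*, with the highest value at *rve8-1*_80 and a fitted peak at 8.84 h. The amplitude was 0.50 ± 0.107 in *rve8-1* and 0.01 ± 0.115 in Col. At3g17640 and At3g17225 peaked in the subjective night, at 18.2 and 15.5 h, and At3g17225 exceeded 4.5 on none of the 24 arrays.

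**Figure D2:**
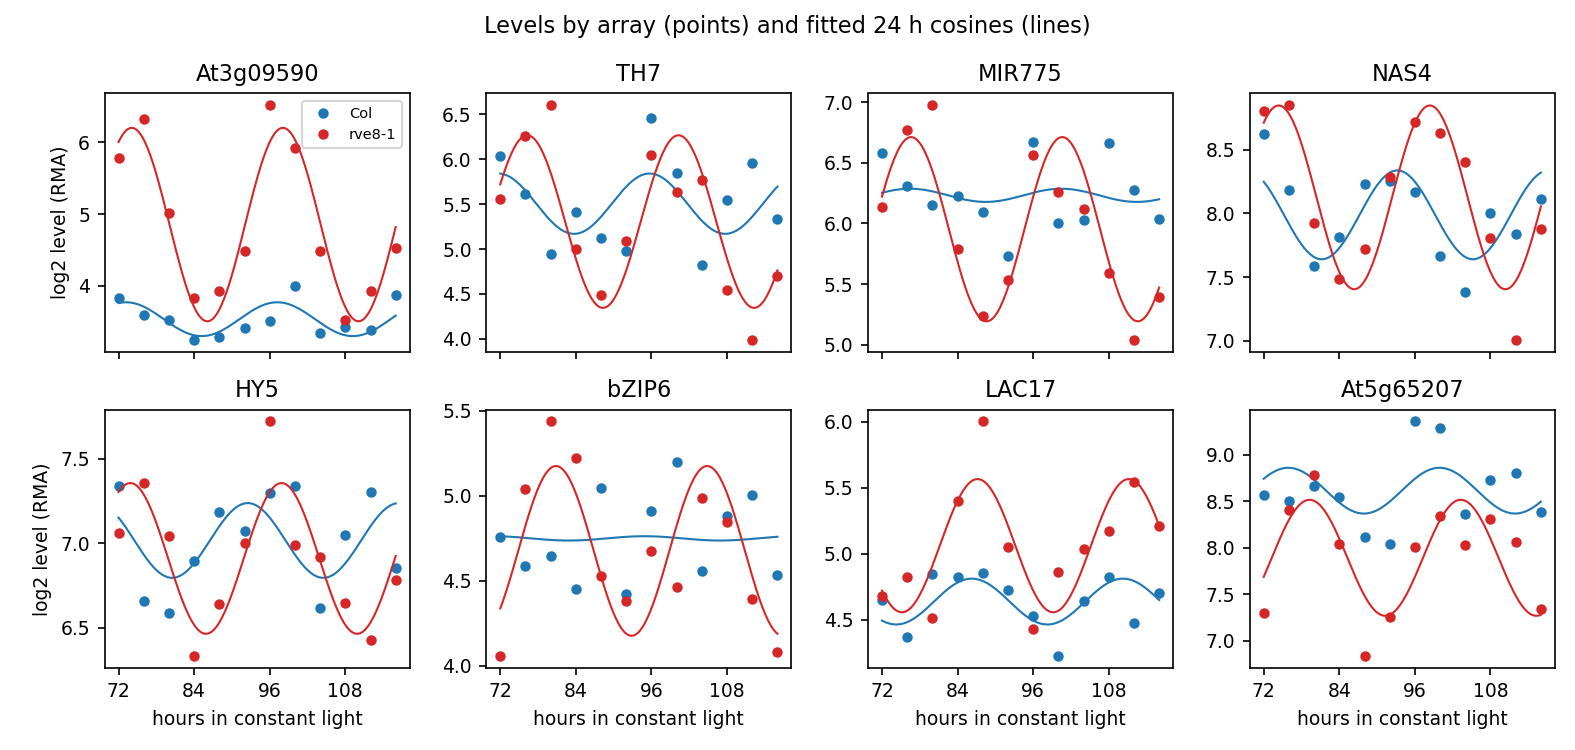
Log2 RMA level (y axis) of 8 members against hours in constant light (x axis), with 1 point per array and the fitted 24 h cosines as lines, Col in blue and *rve8-1* in red. At3g09590 reaches 6.52 in *rve8-1* and stays at or below 4.00 in Col, whereas in *NAS4* and *HY5* both genotypes vary over the day.

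Most members peaked in the first part of the subjective day. In *rve8-1*, 50 members peaked from 0 to 4 h and 132 from 4 to 8 h after subjective dawn, which together is 80.2% of the set, and the median peak was at 4.75 h. Of the other genes that met the *rve8-1* amplitude and R-squared minima, 47.6% peaked in these 8 h, with a median of 6.39 h. In the mirrored set 54.5% did so by their Col peaks. The peak time was not used by the rule, yet it comes from the same fits, and the difference in these shares was not tested. The share depended on the locus length adjustment described below, under which 47.5% of the 183 genes that met the rule, and 62.5% of the 112 members that still met it, peaked in these 8 h. The 28 members below the expression filter were not adjusted and are among the 112. Of these 28, 11 peaked in these 8 h and 11 from 20 to 24 h.

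The other 45 members peaked later. *GolS1*, the galactinol synthase that starts the synthesis of raffinose family sugars, peaked at 10.2 h (amplitude 0.69 ± 0.11 in *rve8-1*, 0.28 ± 0.11 in Col). Early in the subjective night came *LAC17*, a laccase of lignin formation, at 15.2 h, *TCP4*, a regulator of leaf growth, at 15.98 h and *FLA8*, an arabinogalactan protein of the cell wall, at 16.6 h. *CLE10*, which encodes a small signalling peptide, peaked at 18.1 h, and *MES8*, a methyl esterase, at 23.3 h.

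**Figure D3:**
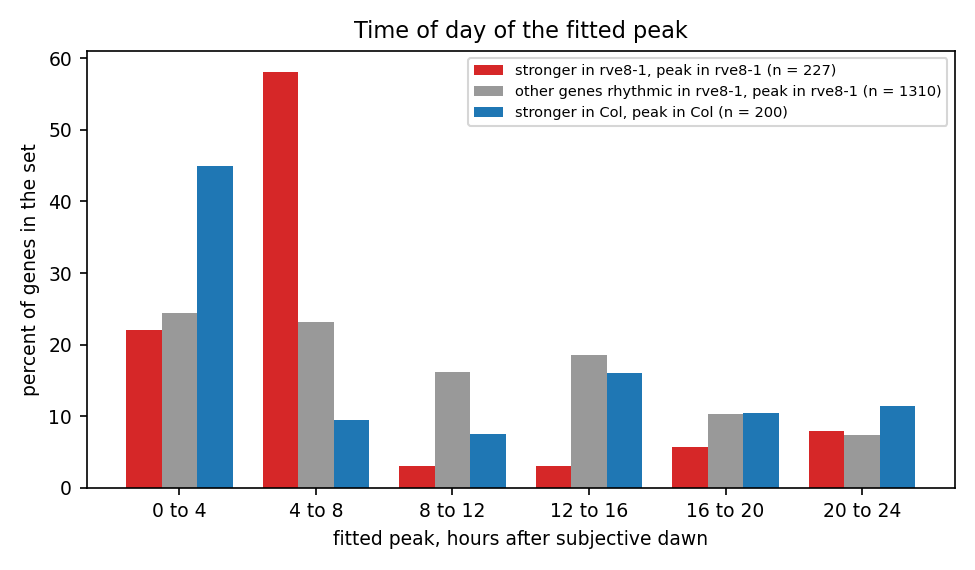
Share of genes (y axis, percent of each set) by fitted peak time (x axis, hours after subjective dawn in bins of 4 h). Red bars are the 227 genes stronger in *rve8-1* by their *rve8-1* peak, grey bars the 1310 other genes past the *rve8-1* amplitude and R-squared minima, and blue bars the 200 genes stronger in Col by their Col peak. The red set has 132 genes in the bin from 4 to 8 h.

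Few members allowed a comparison of peak times. In 19 of them R-squared in Col was at least 0.5, and 18 of these peaked later in *rve8-1*, with a median delay of 4.96 h. Among all 1190 genes with the same Col R-squared that met the *rve8-1* minima, the peak was later in *rve8-1* for 1185, by a median of 4.68 h.

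The rhythm of the members was seen on both days of free run, with a smaller median amplitude on day 5. The amplitude fitted to the 6 arrays of 1 day was larger in *rve8-1* than in Col for 223 members on day 4 and for 216 on day 5, and for 212 on both days. The median was 0.58 on day 4 and 0.46 on day 5 in *rve8-1*, and 0.23 and 0.22 in Col. All genes past the *rve8-1* minima had a similar decline in *rve8-1*, from 0.62 to 0.51, and expressed nuclear genes had one from 0.25 to 0.19. In Col the medians of days 4 and 5 were 0.51 and 0.45 for the former and 0.17 and 0.18 for the latter. Over expressed nuclear genes, the median amplitude in *rve8-1* thus exceeded that in Col mainly on day 4. For 226 members the *rve8-1* peaks of the 2 days lay within 4 h of each other. Both days entered the rule, so these counts describe how the set is made up.

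The same few arrays held the extremes of many members. In *rve8-1*, 92 members were highest at 80 h, 54 at 76 h and 26 at 96 h, and 73 were lowest at 88 h, 54 at 112 h and 42 at 116 h. In Col, 69 were highest at 96 h and 55 and 54 were lowest at 104 and 92 h. For the 182 members that peaked from 0 to 8 h, the median deviation from a gene's own mean in *rve8-1* was 0.56 at 76 h, 0.61 at 80 h, 0.42 at 96 h and 0.22 at 100 h, and it was -0.54 at 88 h, -0.48 at 112 h and -0.45 at 116 h. In Col the values lay between -0.26 and 0.32. Thus the median deviation in the high phase was larger on day 4 than on day 5. The mean of the 6 arrays of day 5 minus that of day 4 had a median of -0.07 over the members in *rve8-1* and 0.08 in Col, against -0.01 and 0.02 over expressed nuclear genes.

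**Figure D4:**
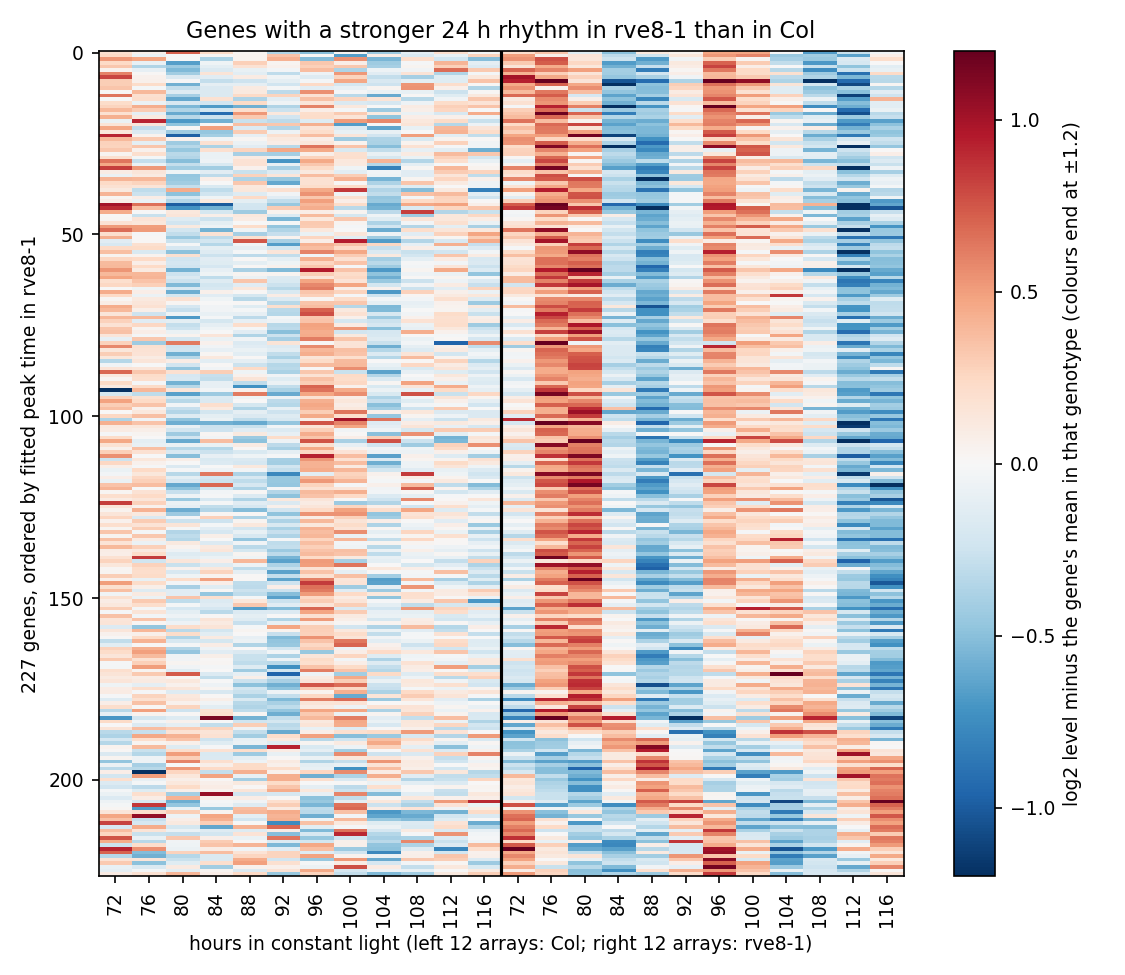
Log2 level minus the gene's mean in that genotype (colour, red above and blue below the mean) for the 227 members (rows, ordered by *rve8-1* peak time) on the 12 Col arrays and the 12 *rve8-1* arrays (columns, hours in constant light). Red blocks at *rve8-1*_76 and *rve8-1*_80 and blue blocks at *rve8-1*_88, *rve8-1*_112 and *rve8-1*_116 run through most rows, and the Col columns are paler.

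Members came more often from short loci, and genes of short loci that were not members shared part of the pattern over the arrays. The median locus length in the RefSeq annotation (TAIR10.1) was 1466 bp for the members with a length (224 of 227), 1848 bp for all genes past the *rve8-1* minima and 2274 bp for expressed nuclear genes. Of the expressed nuclear genes, 2.16% were members among loci under 600 bp, 2.63% from 600 to 1000 bp, 1.73% from 1000 to 2000 bp, 0.492% from 2000 to 4000 bp and 0.231% above that. The corresponding shares of the mirrored set were 1.92, 1.92, 0.626, 0.436 and 0.347%.

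The 1777 expressed genes under 1000 bp that were not members had a median deviation of 0.20 at *rve8-1*_76, 0.26 at *rve8-1*_80, 0.22 at *rve8-1*_96 and -0.28 at *rve8-1*_88. The 2588 genes of 4000 bp or more went the other way, with -0.13, -0.17, -0.18 and 0.24. The profile of the members peaking from 0 to 8 h correlated with that of the short loci at r = 0.77 over the 12 *rve8-1* arrays and r = 0.80 over the 12 Col arrays, and with that of the long loci at r = -0.81 and -0.72. These correlations are descriptions over arrays that all these genes share. The part of such array-wide shifts in the result was not tested, but the rule was also applied to values from which the median deviation of genes of like length had been removed on each array. Only expressed genes with a locus length were adjusted, so the 28 members below the expression filter kept their values. The rule then found 183 genes and kept 112 of the 227 members, these 28 included, with a median peak at 2.28 h for the 183. All 227 members still had the larger amplitude in *rve8-1*, with medians of 0.45 in *rve8-1* and 0.16 in Col. For the members that were not adjusted, this follows from the rule itself.

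**Figure D5:**
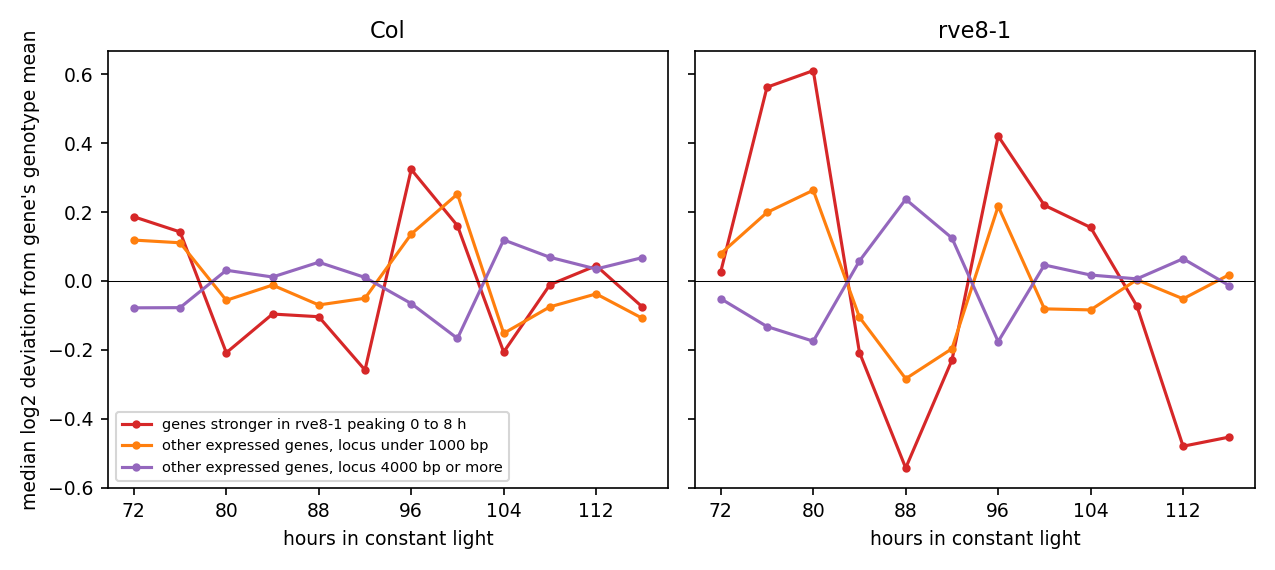
Median log2 deviation from each gene's genotype mean (y axis) against hours in constant light (x axis) in Col (left) and *rve8-1* (right), for the 182 members peaking from 0 to 8 h (red), the 1777 other expressed genes with loci under 1000 bp (orange) and the 2588 with loci of 4000 bp or more (purple). The red line reaches 0.61 at *rve8-1*_80, where the orange line is at 0.26 and the purple one at -0.17.

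Membership depended on single arrays. When 1 array at a time was left out, between 158 (without *rve8-1*_80) and 216 (without Col_76) of the 227 members still met the rule, and 55 met it in all 24 cases. The total that met it rose to 651 without *rve8-1*_100, 446 without *rve8-1*_104 and 393 without *rve8-1*_92, and lay between 192 and 320 without any other array. When the means of the 2 days were made equal in each genotype, which leaves a 24 h cosine as it was, 268 genes met the rule. All 227 members were among them, but that step can only raise R-squared, so no member could be lost. Removal of a linear trend kept 63 of the 227, and *LAC17* was not among these. Of these 63, 21 also met the rule in all 24 cases and after the adjustment for locus length. Without the trend removal, a core of 42 members met the rule in all 24 cases and after the adjustment for locus length. Core members below the expression filter, such as At3g31340, were not adjusted. The core held 16 genes with a symbol, among them *TH7*, *MIR775*, *AGL44*, *GolS1*, *UMAMIT36*, *ARR6*, *NUDT18*, *bZIP6*, *MPK5*, *PYE* and *LAC17*, and 26 loci without one, among them At3g09590, At1g19960 and At2g41090.

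Some core members have known roles. *AGL44* (also *ANR1*) encodes a MADS-box factor of the response of roots to nitrate, and its amplitude was 0.72 ± 0.16 in *rve8-1* and 0.14 ± 0.18 in Col, at levels that exceeded 4.5 on 5 of 12 arrays of each genotype. *ARR6*, a response regulator that dampens cytokinin signalling, had 0.60 ± 0.10 and 0.18 ± 0.09. *UMAMIT36* belongs to a family of amino acid transporters and had 0.67 ± 0.09 and 0.25 ± 0.10. The levels of *ARR6* were 5.89, 6.41 and 6.68 in Col and 5.64, 6.69 and 7.31 in *rve8-1*. At 6 harvests *rve8-1* was above every Col array, so for this gene the peaks were higher in the mutant.

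Of the pathway lists examined, 11 in number, the iron list and the touch list each held 1 member and the other 9 held none. These were clock genes (21 rows), cold (10), salicylic acid defence (12), jasmonate (15), glucosinolates (15), flavonoids (10), abscisic acid (10), starch (6) and growth and auxin (7). At the share of 0.753% over all nuclear rows, most lists of this size would hold no member. The clock genes had median amplitudes of 1.00 in Col and 0.95 in *rve8-1*, and 10 of 21 were larger in *rve8-1*. The flavonoid list had 0.90 and 0.78, and starch genes had 0.82 and 0.80. The lists with the largest amplitudes in Col thus had medians of similar size in *rve8-1*. In mean level, no gene of the 11 lists was called higher in *rve8-1* by limma. Those called lower were *RVE8* on the clock list, 2 cold genes, 3 rows of the jasmonate list, of which 2 belong to *VSP1*, and 1 glucosinolate gene.

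The iron list was the one in which every gene had a larger amplitude in *rve8-1*, 12 of 12 against 51.9% of nuclear rows and 57.0% of expressed nuclear rows. Plants take up iron from soil through the reductase FRO2 and the transporter IRT1, under bHLH factors that are induced when iron is short, and ferritins such as FER1 store excess iron. The median amplitude of the list was 0.35 in Col and 0.77 in *rve8-1*. The count rests on fitted amplitudes, which the rule also uses, and it was not tested. In Col the median deviation of the list was 0.95 at 72 h but -0.21 at 96 h, both at CT0. A cosine fitted to these medians had an R-squared of 0.027 in Col and 0.50 in *rve8-1*. The smaller amplitude in Col thus does not mean a flat level there. *NAS4*, which makes the metal chelator nicotianamine, met the rule. Its level was 7.39, 8.06 and 8.63 in Col and 7.01, 8.11 and 8.85 in *rve8-1*, and its amplitude was 0.72 ± 0.105 in *rve8-1* and 0.35 ± 0.103 in Col. At 4 harvests *rve8-1* was above every Col array and at 1, *rve8-1*_112, below all of them.

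The remaining iron genes missed the rule on amplitude, R-squared or the ratio. Amplitudes in *rve8-1* and Col were 1.02 and 0.43 for *BHLH38*, 0.85 and 0.29 for *BHLH39* and 0.90 and 0.29 for *BHLH100*, with *rve8-1* R-squared values of 0.58, 0.56 and 0.38. *BHLH38* and *BHLH39* are close copies that neighbour each other, and their probes may not separate them fully. *IRT1* had amplitudes of 0.92 and 0.73 and *FRO2* of 0.66 and 0.36. In *rve8-1* these uptake genes peaked between 5.14 and 7.92 h, and the ferritin genes *FER1*, *FER3* and *FER4* between 16.5 and 18.8 h. No iron gene was called higher or lower in mean level by limma (0 of 12 in each direction, with 3 at an unadjusted p under 0.05). *PYE*, a bHLH repressor of the iron deficiency response that was not on the list, was a member, with 0.52 ± 0.12 in *rve8-1* and 0.17 ± 0.11 in Col.

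*TCH2* encodes a calmodulin-like calcium sensor known for its induction by touch. Its level was 7.19, 7.62 and 8.0 in Col and 6.38, 7.35 and 7.97 in *rve8-1*. At 4 harvests *rve8-1* was below all Col arrays and at none above, and the lowest array was *rve8-1*_88. The amplitude was 0.47 ± 0.128 in *rve8-1* and 0.21 ± 0.088 in Col. Of the other genes of that list, *TCH3* had equal amplitudes of 0.52, *TCH4* had 0.45 in *rve8-1* and 0.35 in Col, and *WRKY33* and *WRKY40* had 0.21 or less in both.

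Among transcription factors, *HY5*, a bZIP protein that promotes light-dependent development, was a member with a level of 6.59, 7.06 and 7.34 in Col and 6.33, 6.95 and 7.72 in *rve8-1*. Its amplitude was 0.45 ± 0.09 in *rve8-1* and 0.22 ± 0.11 in Col, a ratio of 0.496, and it met the rule in 15 of the 24 cases with 1 array left out. *MYB77*, known from auxin responses, had 0.49 ± 0.07 and 0.18 ± 0.08 and met it in all 24. The names and synonyms of 523 nuclear rows matched transcription factor keywords, and 6 of these rows (1.15%) were members. The keywords did not match every such factor: the members *bZIP6*, *AGL44* and *PYE* are not among the 6. Members were 2 of 90 peroxidase and glutathione transferase genes (2.22%), 3 of 157 F-box and ubiquitin genes (1.91%), 1 of 592 protein kinases, 1 of 242 cytochrome P450 genes, 0 of 67 ribosomal protein genes, 0 of 72 chlorophyll-binding and photosystem genes and 0 of 57 heat shock genes and chaperones, against 0.753% of all nuclear rows. Of the 227 members, 201 were annotated as protein coding and 23 as other classes, 10.1% against 12.5% of the nuclear rows.

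The mean level over the day was not used by the rule, and it could be tested. A linear model with 1 mean per genotype and circadian time was fitted with limma to the 19473 expressed rows, with day 5 as the replicate of day 4, and the contrast of the means over the 6 times counted as different below an adjusted p of 0.05 (Benjamini-Hochberg over all rows, two-sided). Since nothing shows that the 2 arrays of a group came from independent experiments, the p-values measure the spread between these arrays. Over all rows 0.416% were called higher and 0.657% lower in *rve8-1*. Among the 199 members tested, 2 were higher and 1 was lower, and 52 had an unadjusted p under 0.05 (3909 of all rows). The median difference of the members was -0.09 log2 units, and 135 of 199 (67.8%) had the lower mean level in *rve8-1*, against a median of -0.00068 and 50.2% over all rows tested. With the adjustment for locus length described above, the median difference of the members was -0.05. The part of array-wide shifts in this difference was not tested.

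At3g09590 had a mean level 1.32 ± 0.099 (SE) log2 units higher in *rve8-1* (adjusted p = 2.27e-06, limma). It was higher in *rve8-1* at 12 of 12 harvests, and it had entered the test through its levels in the mutant. *LAC17* was higher by 0.42 ± 0.074 (adjusted p = 0.0133, limma). Its level was 4.23, 4.68 and 4.85 in Col and 4.43, 5.05 and 6.0 in *rve8-1*, and it was higher in *rve8-1* at 10 of 12 harvests, of which 8 lay above every Col array. At5g65207 was lower in *rve8-1*, with a log2 difference of -0.72 ± 0.160 (adjusted p = 0.0467, limma). Its level was 8.04, 8.56 and 9.36 in Col and 6.84, 8.03 and 8.79 in *rve8-1*, and 6 *rve8-1* arrays were below all Col arrays. The call of At5g65207 was lost in 18 of the 24 fits with 1 array left out, while At3g09590 and *LAC17* were called in all 24.

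The number of members called in mean level changed when some single *rve8-1* arrays were left out. Without *rve8-1*_80 it was 24, of which 22 were lower, without *rve8-1*_112 it was 9, without *rve8-1*_96 it was 8 and without *rve8-1*_76 it was 7. The calls over all 19473 rows rose too, from 209 to 1187, 752, 314 and 430 in the same order. With the spread estimated from the Col arrays alone, which the R-squared limit of the rule did not use, 33 members were called, 2 higher and 31 lower, of 1541 rows called in all. At1g24147 was the member named here with the next largest level difference, -0.64 ± 0.164 (adjusted p = 0.0688, limma), and At1g19960 followed with -0.52 ± 0.142 (adjusted p = 0.0810, limma).

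A change of the level difference from day 4 to day 5 was also tested with limma, as the interaction of genotype and day. It was called in 0 of 19473 rows (0%) and in 0 of 199 members, of which 12 had an unadjusted p under 0.05 (709 of all rows). The smallest adjusted p among the members was 0.999. The median change was -0.16 log2 units in the members and -0.03 over all rows tested.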

How the data were processed

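The values were deposited by the authors as log2 expression levels, 1 per gene model and array, made from AGRONOMICS1 tiling arrays labelled with a 3′ IVT kit. Per the study's methods, the authors left out probes that hybridized poorly and applied RMA (background correction, normalization between arrays, summary per probe set) in Aroma.Affymetrix, using TAIR9 genes. The table held 30237 rows, all 24 columns were mapped to samples by their labels, and it held 0 columns of other samples. No further normalization was applied.

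Cosines were fitted in Python 3.11.15 with numpy 2.4.6 and pandas 2.3.3 (9 residual degrees of freedom per genotype), and the standard error of an amplitude is that of the cosine coefficient. Levels were tested in R 4.3.3 by limma 3.58.1 (12 residual and 3.58 prior degrees of freedom), on rows with at least 4 time points above 4.5 in either genotype. In the balanced design the mean level is orthogonal to the cosine terms, but the R-squared limit selects on the residual spread in *rve8-1*, so a fit with the spread of Col alone was run as an alternative. Scripts were tested on simulated data. Gene symbols, locus lengths, gene classes and the order of loci came from RefSeq (TAIR10.1), which matched 29715 rows and gave symbols for 75 of the 227 members. No coordinates were used because the builds differ. Promoter motifs were not analysed here.

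The members and the gene lists were chosen with earlier results of these data known. Genes were named by a rule: the 12 members with the largest *rve8-1* amplitude, the 6 with the smallest amplitude ratio, those called in mean level or in the day interaction, those on the lists, 2 on either side of each limit, and *RVE8* with the 2 loci before it. Members named in addition, for their annotated role or because they met the rule under several settings, were chosen after their values were seen. Precision is limited by the number of arrays, since signal over background is unknown for summarized values. Alternatives covered the period, trend, scaling between arrays, limits of the rule, filter, variance model, replicate block, each array left out and, chosen after seeing the data, equal day means and an adjustment for locus length in 20 classes. Figures were drawn with matplotlib 3.10.9.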

Additional observations from a re-analysis of the deposited data

How the results depend on the processing

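The median peak time of the members stayed between 4.16 and 5.13 h under the other settings except where given here, and the median level difference of the members was below 0 in every fit of the level contrast. Against 227 genes under the rule and 200 under its mirror, there were 342 and 230 when the period was free between 20 and 28 h, 92 and 121 after removal of a linear trend, 268 and 259 with equal day means, 257 and 198 with median centring, 239 and 163 with quantile normalization, 490 and 434 with an amplitude minimum of 0.3, 108 and 93 with 0.5, 386 and 342 with an R-squared minimum of 0.5, 102 and 106 with 0.7, 82 and 100 with a ratio of at most 0.333, 199 and 124 with the expression filter, and 183 and 183 with the adjustment for locus length. With 1 array left out the ranges were 192 to 651 and 184 to 482. The median peak was at 2.28 h with the length adjustment and at 3.78 to 5.59 h with 1 array left out. With a free period it was 8.26 h, but that peak was counted in cycles of the fitted period from the start of constant light. It therefore cannot be set beside the other peak times. After removal of the line, 89 members were below the amplitude minimum, 119 were below the R-squared minimum and 66 were above the ratio limit. A computed cosine with no trend and no noise, at the median amplitude and peak of the members, keeps an amplitude of 0.41 of 0.49 after the same step. The share of genes peaking from 0 to 8 h was 48.9% after removal of the line and 80.2% with equal day means. The causes of the shifts between settings were not tested. Against 3 members among 209 rows called in mean level by limma, there were 33 among 1541 with the Col spread alone and 5 among 449 with a cosine model. A threshold of 0.01 gave 1 among 41. With 1 array left out, 2 to 24 members and 77 to 1187 rows were called. The other settings gave 2 to 4 members and 87 to 404 rows. The labels give the hours in constant light of each array, but not whether arrays of the 2 genotypes were handled together. The day 5 minus day 4 differences of the genotypes correlated over 0.1 at 2 of the 6 circadian times (range, -0.205 to 0.314). Over all 66 pairs of groups, 25 did so, and 6 values are too few to settle whether arrays were paired. A replicate block for the day gave 4 called members and 222 called rows against 3 and 209. The day interaction called 0 members under all settings run. Of the level differences of the named members, none changed direction where called, while 18 and 3 calls were lost and 10 and 10 were gained with 1 array left out and under other settings. Small amplitudes near 0.4 in genes close to the lower end of the scale are the least certain, since signal over background was not measured here.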

Other observations

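Gene families that recurred among the members were noticed after their values were seen, so their counts are descriptions with no test. Over all nuclear rows the share of members was 0.753%. Families picked in this way lie above that share through the choice itself. Of the 27 nuclear rows annotated as Nudix hydrolases, enzymes that cleave nucleoside diphosphates linked to other groups, 5 were members: *NUDX1*, *NUDT12*, *NUDT18*, *NUDT21* and *NUDX25*. Their amplitudes ranged from 0.40 to 0.51 in *rve8-1* and from 0.09 to 0.19 in Col, and all peaked between 3.74 and 6.55 h after subjective dawn. *NUDT18* met the rule under every array left out. Of 13 plasma membrane aquaporins, water channels, 2 were members. They were *RD28* (*PIP2;3*), with amplitudes of 0.68 ± 0.11 in *rve8-1* and 0.29 ± 0.09 in Col, and *PIP2B* (*PIP2;2*), with 0.44 ± 0.09 and 0.17 ± 0.07. These are close copies, and the probes may not separate them fully. Of 35 response regulator genes, *ARR6* and *RR16* were members, both type-A regulators of cytokinin signalling, and of 40 thioredoxins, *TH7* and *TRX1*, both of the h type.

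Of 43 root hair genes, a class also picked after the values were seen, *MRH6* and *RHS18* were members (4.65%, against 0.753% of all nuclear rows). Some other members, picked by their annotated roles, were these. *MYB66* (*WEREWOLF*), which sets the hairless cell fate in the root epidermis, had amplitudes of 0.49 in *rve8-1* and 0.19 in Col, and *GDU1*, a regulator of amino acid export, 0.49 and 0.20. *PSK1*, the precursor of the growth peptide phytosulfokine, had 0.72 and 0.32. The root markers *EXPA7*, *CASP1*, *PYK10* and *COBL9* had amplitudes of 0.07 to 0.26 in *rve8-1* and 0.08 to 0.14 in Col, and 0 of 4 was called in mean level by limma (1 at an unadjusted p under 0.05). Members were spread over all 5 nuclear chromosomes, from 0.538% of the rows of chromosome 4 to 0.828% of those of chromosome 1.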
